A study of Danio rerio with 12 samples.

Results

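The vitellogenin genes of the zebrafish, vtg1 to vtg7, encode the precursors of egg yolk. They were taken by gene symbol, which gave 7 of the 26171 named genes with counts in zebrafish ovary, and each gene is described in all 12 libraries. Polyadenylated RNA of ovary had been sequenced in 4 groups of 3 libraries. These are adamts9 mutants at 61 days post fertilization (dpf), wild-type fish of the AB strain at 61 dpf, adamts9 mutants at 47 dpf, and wild-type AB fish at 47 dpf. Adamts9 is a secreted metalloprotease of the extracellular matrix. The labels name neither the mutant allele nor its zygosity, nor how many fish went into a library. The replicates may therefore be technical in part, and a p-value measures only the spread between these libraries. The design text of the series names other ages than the sample labels, which were followed here.

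Vitellogenins are large lipid-binding proteins of the same family as apolipoprotein B and the microsomal triglyceride transfer protein. In egg-laying vertebrates they are made mainly by the liver of the female, where estrogen switches the genes on through estrogen receptors, and reach the ovary in the blood. Growing oocytes take them up by receptor-mediated endocytosis, through receptors of the low-density lipoprotein receptor family, and cathepsins then cut them into the yolk proteins that feed the embryo. Ovarian RNA thus reports on vitellogenin transcripts in the dissected tissue, not on the protein taken up from the blood.

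The genes are vtg1 (ENSDARG00000092233), vtg2 (ENSDARG00000055809), vtg3 (ENSDARG00000016448), vtg4 (ENSDARG00000078429), vtg5 (ENSDARG00000092126), vtg6 (ENSDARG00000016825) and vtg7 (ENSDARG00000092419). In the RefSeq annotation of the GRCz12tu assembly, vtg5, vtg4, vtg6, vtg7 and vtg2 stand in that order on chromosome 22, and vtg3 stands alone on chromosome 11. vtg1 had no entry in that annotation, so its place is not given and the row covers only the copies listed. vtg3 encodes a vitellogenin that lacks the phosphate-rich phosvitin segment and differs most from the others. Near-identical copies can share reads, which the counting then divides between them, and the identity of the copies was not computed here. Of their 12 values, those that were not whole numbers were 10 in vtg1, 8 in vtg2, 9 in vtg4, 11 in vtg5, 5 in vtg6 and 10 in vtg7, against 0 in vtg3 (tolerance 1e-06). Over all genes 45.4% of the values were not whole. A single copy other than vtg3 is treated as uncertain, and the sum of the 7 genes is given beside each of them.

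Total estimated counts ran from 16456718 to 38754919 per library. Levels are given as CPM (counts scaled to the library size, with TMM factors), a scale that is not divided by transcript length, so that levels of different genes are not compared. A count of 0 in a library allows a level of up to 0.0811 to 0.181 CPM (3 counts, counting error only). The adamts9 transcript stood at 12.9 to 16.1 CPM in mutants and 9.98 to 15.9 CPM in wild type at 61 dpf, and at 13.1 to 15.2 CPM in mutants and 13.7 to 18.9 CPM in wild type at 47 dpf. Its level therefore does not check the genotype labels. Oocyte genes were abundant in every library, with 2168 to 3396 CPM of ca15b, a carbonic anhydrase gene of oocytes, and 500.4 to 5510 CPM of zp3.2, a gene of the egg coat. Replicate 1 of the mutant at 47 dpf stood apart in liver transcripts. A list of 32 liver genes summed to 438.6 CPM there, against 56.7 to 166.7 CPM in the other 11 libraries, and replicate 1 of the mutant at 61 dpf was the next highest.

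Vitellogenin transcripts had their highest levels in wild-type ovary at 61 dpf. The summed level of the 7 genes was 12.3, 2.66 and 2.0 CPM in mutants at 61 dpf (replicates 1, 2 and 3), against 107 (replicate 1), 14.1 (replicate 2) and 127 CPM (replicate 3) in wild type of that age. At 47 dpf it was 8.86, 3.38 and 2.91 CPM in mutants, against 2.43, 3.05 and 1.47 CPM in wild type. All 3 wild-type libraries of 61 dpf lay above the other 9 libraries, but they differed widely among themselves, and replicate 2 was barely above the highest mutant library, with 95% Poisson intervals that overlapped (10.9 to 13.7 CPM in replicate 1 of the mutant, against 12.6 to 15.8 CPM in replicate 2 of the wild type). Even at its highest the family took 0.0116% of a library.

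As group means, the sum was 5.64 ± 5.74 CPM in mutants and 82.6 ± 60.1 CPM in wild type at 61 dpf, and 5.05 ± 3.31 CPM in mutants and 2.32 ± 0.792 CPM in wild type at 47 dpf (SD, n = 3 each). The mutant mean was thus 14.7-fold lower than wild type at 61 dpf. In wild type, the mean at 61 dpf was 35.7-fold that at 47 dpf. The order of the group means was wild type at 61 dpf, mutant at 61 dpf, mutant at 47 dpf and wild type at 47 dpf, and the ranges of the last 3 overlapped one another. In ovary RNA, fewer cells that carry these transcripts and less of the transcript per cell cannot be told apart.

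**Figure D1:**
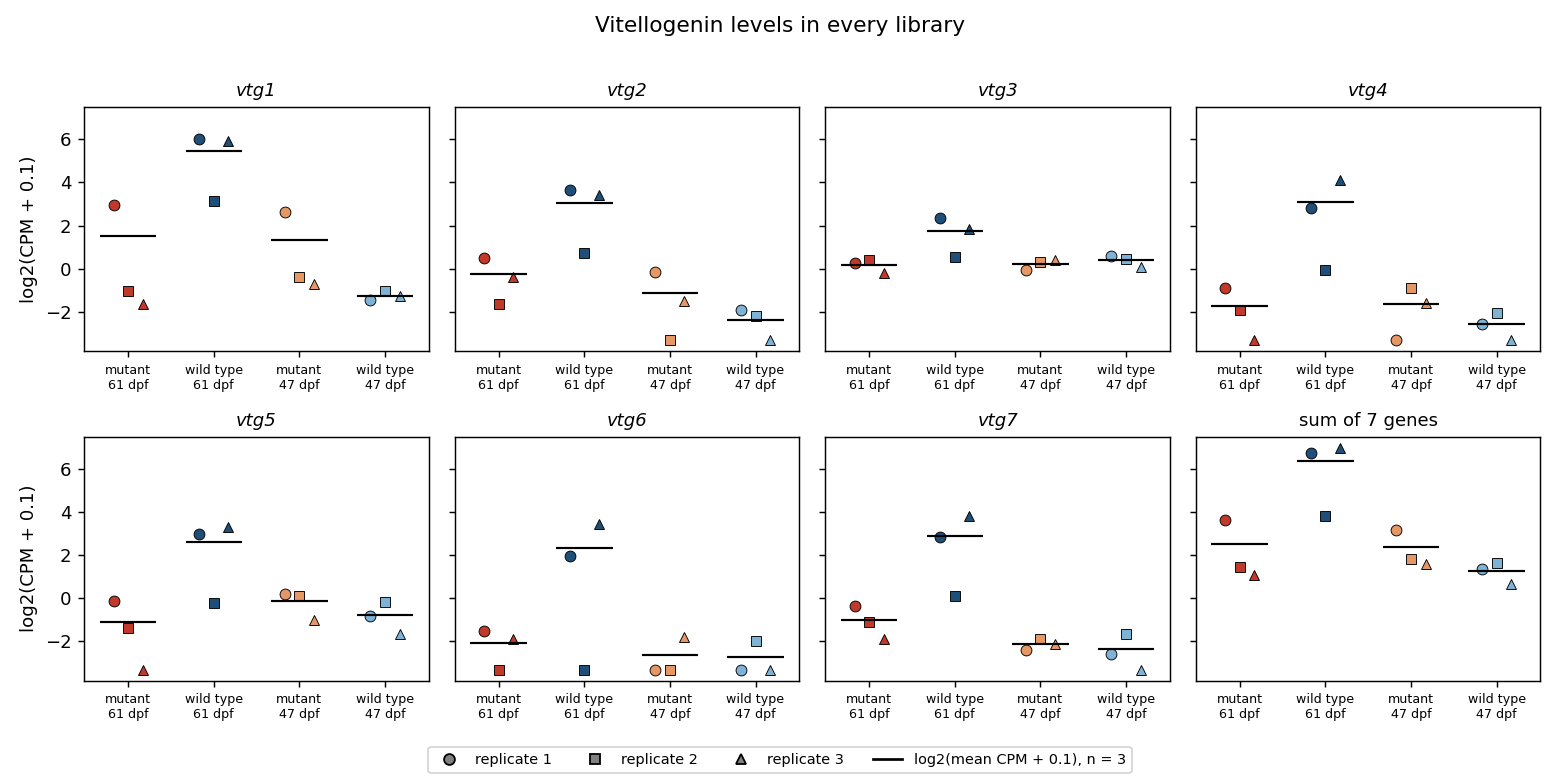
Level of each vitellogenin gene and of their sum in the 12 libraries, as log2 of CPM plus 0.1. Each point is a library, its shape gives the replicate number and the bar is the log2 of the group mean plus 0.1 (n = 3). The wild-type libraries of 61 dpf are the highest for the sum, with replicate 2 below replicates 1 and 3, and replicate 1 of the mutant at each age stands above the rest of the other 3 groups, which run from 1.47 to 12.3 CPM.

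vtg1, an abundant liver vitellogenin in the adult female, took 55.1% of the family's counts in wild-type ovary at 61 dpf. Its level was 7.65, 0.385 and 0.223 CPM in mutants and 64.0, 8.63 and 61.0 CPM in wild type at 61 dpf. The groups did not overlap, although replicate 1 of the mutant came close to replicate 2 of the wild type. At 47 dpf vtg1 was at 6.09, 0.663 and 0.50 CPM in mutants and at 0.264, 0.388 and 0.308 CPM in wild type. Here the order was the other way round, with every mutant library above every wild-type library, and replicate 1 stood far above the other mutants.

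vtg2, the last of the row on chromosome 22, was likewise highest in the 3 wild-type libraries of 61 dpf. It was at 1.32, 0.223 and 0.668 CPM in mutants and 12.4, 1.53 and 10.4 CPM in wild type at 61 dpf. At 47 dpf it was at 0.797, 0 and 0.251 CPM in mutants and 0.160, 0.119 and 0 CPM in wild type. The groups were apart at 61 dpf, narrowly, and overlapped at 47 dpf, where no wild-type library held more than 4 counts.

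vtg4 and vtg7, from the middle of the row on chromosome 22, were also highest in the 3 wild-type libraries of 61 dpf. vtg4 was at 0.437, 0.167 and 0 CPM in mutants and 7.01, 0.849 and 17.3 CPM in wild type at 61 dpf, without overlap. vtg7 was at 0.673, 0.358 and 0.167 CPM in mutants and 7.14, 0.985 and 13.9 CPM in wild type at that age, also without overlap. In both genes replicate 3 was the highest wild-type library, whereas in vtg1 and vtg2 replicates 1 and 3 were close to each other. At 47 dpf vtg4 did not exceed 0.427 CPM in mutants and 0.139 CPM in wild type, and vtg7 did not exceed 0.169 CPM in mutants and 0.217 CPM in wild type, levels of a few counts per library.

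vtg5 and vtg6 overlapped between genotypes through a single wild-type library. vtg5 was at 0.818, 0.285 and 0 CPM in mutants and 7.71, 0.750 and 9.72 CPM in wild type at 61 dpf, so that replicate 2 of the wild type lay below replicate 1 of the mutant. vtg6 was at 0.251, 0 and 0.167 CPM in mutants and 3.81, 0 and 10.9 CPM in wild type at 61 dpf. Replicate 2 of the wild type held no vtg6 count, while replicates 1 and 3 were far above every other library. At 47 dpf vtg5 was at 1.03, 0.973 and 0.395 CPM in mutants and 0.467, 0.772 and 0.212 CPM in wild type, which overlapped, and vtg6 was at 0 in 4 of the 6 libraries of that age.

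vtg3 was the member with the smallest range across the libraries and the one with whole counts in all of them. It was at 1.10, 1.24 and 0.779 CPM in mutants and 4.97, 1.37 and 3.44 CPM in wild type at 61 dpf. Replicates 1 and 3 of the wild type stood apart, whereas replicate 2, with 29 counts and a 95% Poisson interval of 0.917 to 1.97 CPM, could not be told from the mutants at this depth. At 47 dpf vtg3 was at 0.855, 1.15 and 1.22 CPM in mutants and 1.40, 1.26 and 0.954 CPM in wild type. Those 6 libraries overlapped with the mutants of 61 dpf, so vtg3 was detected in every library, at 0.779 to 1.40 CPM in all but replicates 1 and 3 of the wild type at 61 dpf.

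Mutant and wild type were compared at 61 dpf with edgeR's quasi-likelihood test, with p-values adjusted over the 21407 genes that passed a filter on low counts. 6 of the 7 genes passed, and vtg6 did not. 2 genes, vtg4 and vtg7, fell in mutants at an adjusted p under 0.05, where 1.82% of all genes tested were called in either direction. The log2 fold change of vtg4 was -5.22 (SE 1.19, edgeR adjusted p = 0.0497) and that of vtg7 -4.12 (SE 0.88, edgeR adjusted p = 0.0427). Both passed the filter only through the wild-type libraries of 61 dpf, so their places in the test were not independent of their high level there.

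The other 4 genes tested at 61 dpf missed the threshold. The log2 fold change of vtg1 was -4.0 (SE 1.26, edgeR adjusted p = 0.0902), that of vtg2 -3.47 (SE 0.96, edgeR adjusted p = 0.0693), that of vtg5 -3.97 (SE 0.98, edgeR adjusted p = 0.0599) and that of vtg3 -1.65 (SE 0.42, edgeR adjusted p = 0.0631). All 6 had an unadjusted p under 0.05, as did 5418 of the 21407 genes, and all 6 were called by DESeq2, which called 2419 genes in all. Without the filter, the log2 fold change of vtg6 was -5.18 (SE 1.49, edgeR adjusted p = 0.0886). In 5 of the 7 genes, all but vtg5 and vtg6, every mutant library lay below every wild-type library, as it did in one direction or the other for 27.9% of all genes tested. Ranked by log2 fold change from the lowest, vtg4, vtg7, vtg1, vtg5, vtg2 and vtg3 stood at places 7, 12, 14, 15, 19 and 262 of the 21407 genes.

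**Figure D2:**
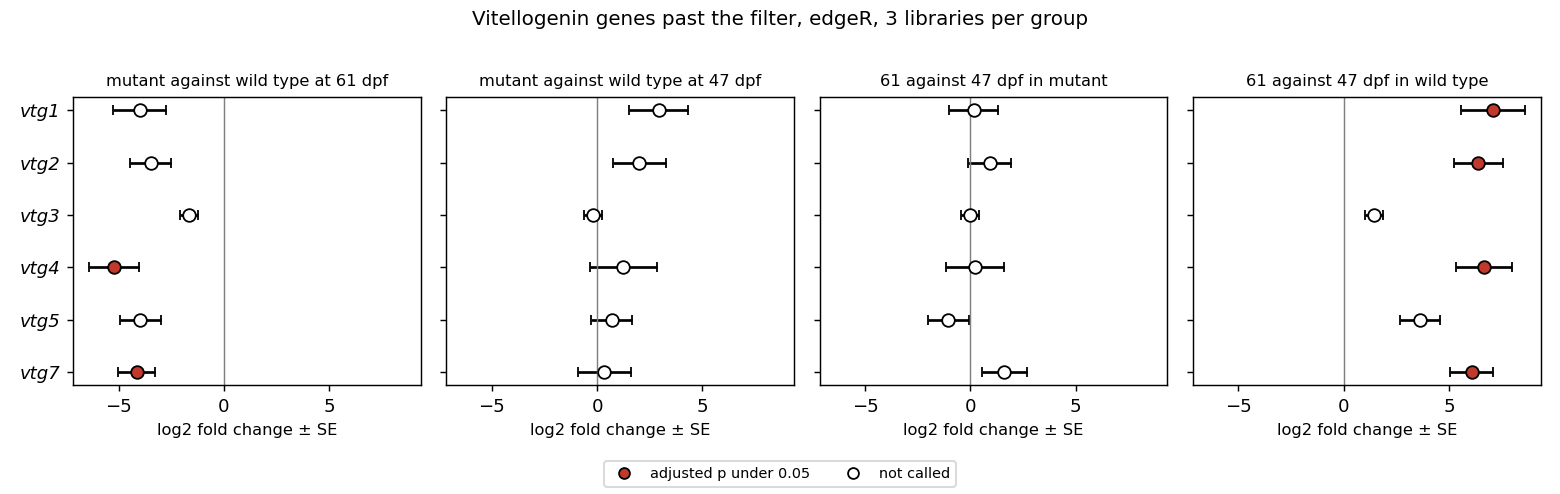
log2 fold change of the 6 vitellogenin genes that passed the filter, with its standard error (edgeR, 3 libraries per group), in the 4 comparisons of 2 groups. Filled points have an adjusted p under 0.05: vtg4 and vtg7 between genotypes at 61 dpf, and vtg1, vtg2, vtg4 and vtg7 between ages in wild type.

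The 2 calls at 61 dpf rested on the full set of libraries. Neither gene was called when any mutant library of 61 dpf, or replicate 1 or replicate 3 of the wild type, was left out. Over all genes, 390 were called in the full fit and 36, 27 and 29 without replicate 1, 2 or 3 of the mutant. Without replicate 1 or replicate 3 of the wild type, 557 and 58 were called. Without replicate 2 of the wild type, the low one, 6 genes were called, namely vtg2, vtg3, vtg4, vtg5, vtg6 and vtg7, and vtg1 had an edgeR adjusted p of 0.0526. That fit called 1639 genes in all. Leaving out the lowest wild-type library favours a difference, and vtg6 reached the filter level only in wild-type libraries of 61 dpf. These 6 calls are therefore a description only. The log2 fold change was negative in all 78 values recomputed under the alternatives tried for vtg1, vtg2, vtg3, vtg4, vtg5 and vtg7. In all of these but vtg5 the groups did not overlap, so leaving out a library could not reverse their order.

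In wild type, vitellogenin transcripts were higher at 61 than at 47 dpf, and the rise was called for 4 of the 6 genes tested, vtg1, vtg2, vtg4 and vtg7. Over all genes 1.52% were called in either direction. vtg4 and vtg7 passed the filter only through the wild-type libraries of 61 dpf, the high group here, so that their calls are not independent of it. The log2 fold change of vtg1 was 7.09 (SE 1.52, edgeR adjusted p = 0.0459), that of vtg2 6.41 (SE 1.19, edgeR adjusted p = 0.0294), that of vtg4 6.67 (SE 1.34, edgeR adjusted p = 0.0367) and that of vtg7 6.09 (SE 1.02, edgeR adjusted p = 0.0251). The sizes for vtg2, vtg4 and vtg7 rest on at most 4, 3.65 and 5.71 counts per wild-type library of 47 dpf and are therefore imprecise. The log2 fold change of vtg5 was 3.62 (SE 0.95, edgeR adjusted p = 0.0735) and that of vtg3 1.44 (SE 0.42, edgeR adjusted p = 0.0915). vtg1, vtg4, vtg2, vtg7, vtg5 and vtg3 stood at places 4, 6, 8, 9, 27 and 507 from the highest log2 fold change of the 21407 genes.

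The libraries of both ages were apart in vtg1, vtg2, vtg4 and vtg7, as they were, in one direction or the other, for 22.8% of all genes tested. None of the 4 calls between ages held when any wild-type library of 47 dpf, or replicate 3 of the wild type at 61 dpf, was left out. Over all genes, 325 were called in the full fit. Without a wild-type library of 47 dpf 16 to 93 were called, and without that replicate 3 51 were called. All 7 genes were called without replicate 2 of the wild type at 61 dpf, and all 4 without replicate 1. Over all genes those fits called 458 and 848. Replicate 2 had the lowest vitellogenin sum of that group, so leaving it out favours a rise. vtg6 reached the filter level only in wild-type libraries of 61 dpf, so its call is not independent of that group. DESeq2 called the 6 genes that edgeR tested, and 1633 genes in all. This comparison and that between genotypes share the 3 wild-type libraries of 61 dpf, so the 2 sets of values are not independent of each other.

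At 47 dpf no vitellogenin gene was called between mutant and wild type by edgeR or by DESeq2, where edgeR called 0.0888% of all genes tested and DESeq2 called 174 genes. None of the 6 genes had an unadjusted p under 0.05, against 1481 of all genes. vtg1 had a log2 fold change of 2.92 (edgeR adjusted p = 0.733), vtg2 of 2.01 (edgeR adjusted p = 0.883), vtg5 of 0.69 (edgeR adjusted p = 0.99) and vtg3 of -0.17 (edgeR adjusted p = 0.998). vtg4 and vtg7, at a few counts per library, had edgeR adjusted p-values of 0.988 and 0.998. vtg1 was the only one of the 7 genes whose mutant libraries all lay above the wild-type ones, and 12.6% of all genes tested were apart in one direction or the other at that age. Apart from replicate 1, the Poisson intervals of the mutant libraries overlapped those of wild type. Without replicate 1 of the mutant, the log2 fold change of vtg1 at 47 dpf was 0.80.

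That library was also the one with the most liver transcripts. fabp10a, a fatty acid binding protein gene used as a marker of hepatocytes, was at 7.38, 0.182 and 0.111 CPM in mutants and 0.243, 0.236 and 0.172 CPM in wild type at 61 dpf. At 47 dpf it was at 32.0, 0.663 and 1.09 CPM in mutants and 0.80, 0.0381 and 0.114 CPM in wild type. Replicate 1 of the mutant was thus far above the rest at each age, and the wild-type libraries of 61 dpf were all low. The sum of the liver list was 167, 84.4 and 77.0 CPM in mutants and 91.1, 56.7 and 76.1 CPM in wild type at 61 dpf, and 439, 96.0 and 120 CPM in mutants and 113, 74.5 and 80.7 CPM in wild type at 47 dpf. Of the 32 liver genes, up to 3 were at 0 in a library.

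The wild-type libraries of 61 dpf, the highest in vitellogenin, were at 56.7 to 91.1 CPM of the liver list, against 74.5 to 439 CPM in the others. The summed vitellogenin level divided by the summed liver level was 0.0735, 0.0315 and 0.0260 in mutants and 1.18, 0.249 and 1.67 in wild type at 61 dpf. It was 0.0202, 0.0352 and 0.0242 in mutants and 0.0215, 0.0409 and 0.0183 in wild type at 47 dpf. On this ratio the wild-type libraries of 61 dpf were the 3 highest, and replicate 1 of the mutant at 47 dpf was among the others. Divided by fabp10a alone, which had 1 to 25 counts in all libraries but replicate 1 of the mutant at each age, the order differed. That ratio was 1.66, 14.6 and 18.0 in mutants and 439.9, 59.8 and 737.7 in wild type at 61 dpf, and 0.277, 5.09 and 2.67 in mutants and 3.03, 80.0 and 12.9 in wild type at 47 dpf. Replicate 2 of the wild type at 47 dpf, with 1 fabp10a count, then lay above replicate 2 of the wild type at 61 dpf, and replicate 1 of the mutant was the lowest library of each age. The 2 libraries with a similar vitellogenin sum, replicate 1 of the mutant and replicate 2 of the wild type at 61 dpf, had the highest and the lowest liver list sum of that age. By fabp10a, replicate 2 of the wild type was not the lowest, at 0.236 CPM against 0.111 CPM in replicate 3 of the mutant. Over the 12 libraries, Pearson's r between the liver level and a vitellogenin gene, both on the log2 scale, ran from -0.31 for vtg4 to 0.11 for vtg1, as a description. The vitellogenin level per unit of liver RNA may differ between ages and genotypes. These ratios therefore do not give the source of the transcripts, which was not tested.

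**Figure D3:**
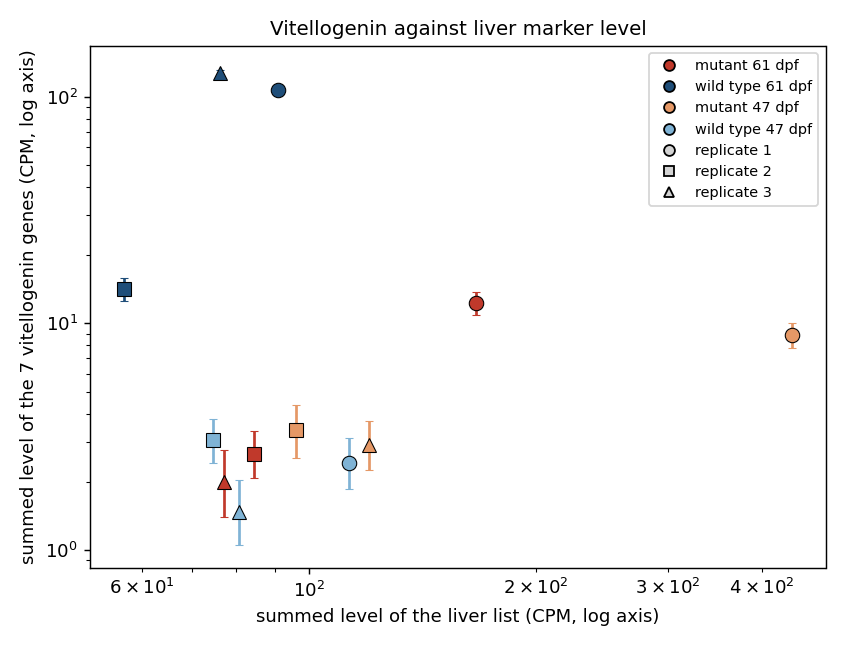
Summed level of the 7 vitellogenin genes against the summed level of 32 liver genes, in CPM on log axes, with 95% Poisson intervals that cover counting error only. Each point is a library. The wild-type libraries of 61 dpf lie high at 56.7 to 91.1 CPM of the liver list. Replicate 1 of the mutant at 47 dpf lies far to the right at 439 CPM, and replicate 1 of the mutant at 61 dpf is next at 167 CPM.

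Both of those mutant libraries were also left out, an alternative chosen after the data were seen. The log2 ratio of the mean sums, mutant against wild type at 61 dpf, was then -5.15, against -3.87 with all libraries. At each age the library left out also had the highest vitellogenin sum and vtg1 level of the mutants. Leaving it out could only lower the mutant mean, so the direction of the shift was fixed in advance. vtg1 was then called at 61 dpf (log2 fold change -7.09, edgeR adjusted p = 0.025), while vtg4 (-6.26, edgeR adjusted p = 0.105) and vtg7 (-4.71, edgeR adjusted p = 0.119) were not, with 4 mutant libraries left in the fit. At 47 dpf the log2 ratio of the sums was 0.44, against 1.12 with all libraries. edgeR called none of the 31 liver genes tested in any comparison, with 5 at an unadjusted p under 0.05 at 61 dpf and 12 at 47 dpf, while DESeq2 called 1 of them, hp, at 61 dpf and 0 at 47 dpf. Over all 21407 genes, 5418 had an unadjusted p under 0.05 at 61 dpf and 1481 at 47 dpf. DESeq2 called 2419 genes in all at 61 dpf and 174 at 47 dpf. hp encodes haptoglobin, a plasma protein of the liver, and was higher in mutants at 61 dpf. Among the mutants of that age, replicate 1, the library with the most liver transcripts, had the lowest hp level. At 47 dpf hp was highest in replicate 1 of the mutant, but only slightly above replicate 1 of the wild type. The level of hp alone was therefore not read as a measure of liver RNA. It is still among the 32 genes of the liver list, so every liver sum and ratio here includes it. At 61 dpf hp gave 14.1 of 56.7 CPM of the list in replicate 2 of the wild type. In replicate 3 of the mutant it gave 21.3 of 77.0 CPM. The median log2 fold change of the list was 0.68 at 61 dpf and 1.59 at 47 dpf, against 0.01 and 0.02 over all genes. The part of liver RNA in the vtg1 level of the 2 mutant libraries was not tested.

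In mutants, the vitellogenin levels of 61 dpf overlapped those of 47 dpf. The log2 ratio of the mean sums was 0.16, and edgeR called no vitellogenin gene and 0% of all genes tested, with 820 genes at an unadjusted p under 0.05. None of the 6 genes tested was among these 820, and DESeq2 called none of them and 24 genes in all. The log2 fold changes were 0.17 for vtg1, 0.92 for vtg2, -0.03 for vtg3, 0.22 for vtg4, -1.04 for vtg5 and 1.61 for vtg7. The groups overlapped in every one of the 7 genes. The fold change of vtg1 turned negative, at -2.92, without replicate 1 of the mutant at 61 dpf, so a direction cannot be given.

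The mutant effect at 61 dpf minus that at 47 dpf had a log2 value of -6.92 for vtg1, -5.49 for vtg2, -1.48 for vtg3, -6.46 for vtg4, -4.66 for vtg5 and -4.48 for vtg7. edgeR called none of these (adjusted p between 0.397 and 0.545) and 0% of all genes tested, while 1811 genes, the 6 among them, had an unadjusted p under 0.05. DESeq2 called vtg5 (-4.71, adjusted p = 0.0442) and 90 genes in all. A difference of the mutant effect between the ages therefore did not pass edgeR's threshold. The median over the 6 genes was -3.98 for mutant against wild type at 61 dpf, 0.97 at 47 dpf, 0.19 for 61 against 47 dpf in mutant and 6.25 in wild type. Over all genes these medians were 0.01, 0.02, -0.01 and 0.02. Since vtg4 and vtg7 reached the test through a single group, the medians over the 6 genes are a description only.

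The make-up of the family also differed between libraries. vtg1 made up 62.4, 14.5 and 11.1% of the summed count in mutants and 59.8, 61.1 and 48.2% in wild type at 61 dpf. At 47 dpf it made up 68.8, 19.6 and 17.2% in mutants and 10.9, 12.7 and 20.9% in wild type. The 5 libraries with the highest sums, the 3 wild-type libraries of 61 dpf and replicate 1 of the mutant at each age, were those in which vtg1 took the largest part of the counts. In the other 7 libraries vtg3 took the largest part, with 33.9 to 64.7%, while in those 5 it made up 2.71 to 9.70%. These are shares of counts, not per length, and are read between libraries rather than between genes. The level of vtg3 itself was 1.10 CPM (61 dpf) and 0.855 CPM (47 dpf) in the 2 mutant libraries of high sum and 0.779 to 1.40 CPM in those 7.

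The 5 libraries with high sums differed among themselves in vtg4 and vtg6. vtg4 made up 3.56% and vtg6 2.05% of the sum in replicate 1 of the mutant at 61 dpf. In the wild type of that age vtg4 made up 6.55, 6.01 and 13.7% and vtg6 3.56, 0 and 8.58%. In replicate 1 of the mutant at 47 dpf both were at 0, with 259 counts of the family in all. The levels of the 7 genes, on the log2 scale, were correlated across the 12 libraries with Pearson's r between 0.71 and 0.96, as a description, since the copies may share reads.

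**Figure D4:**
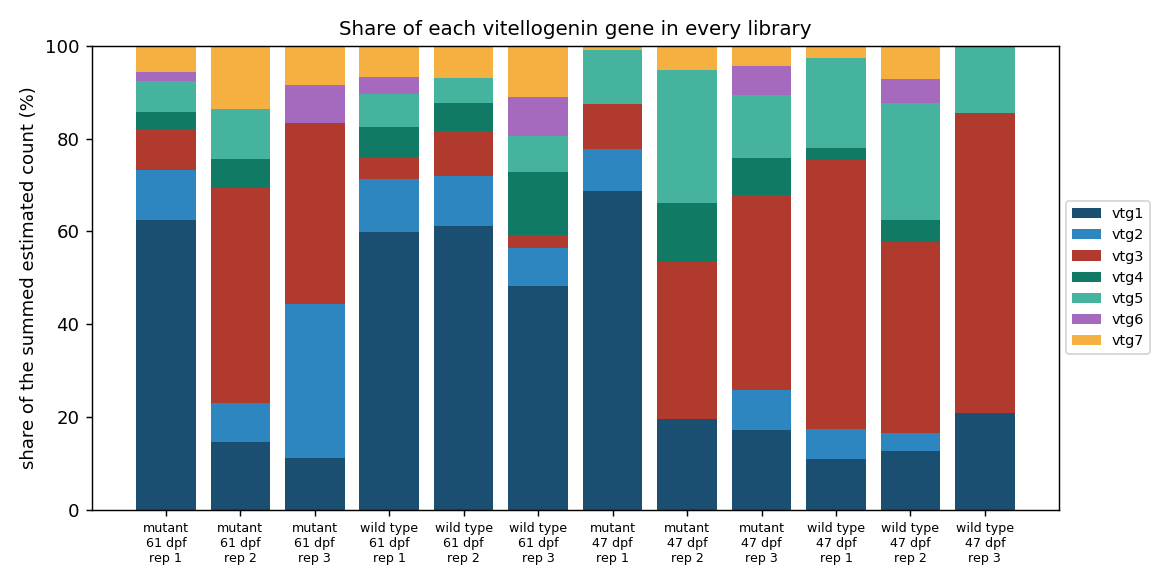
Share of each vitellogenin gene in the summed estimated count of the 7 genes, in percent, for every library. vtg1 takes the largest part of the counts in the 3 wild-type libraries of 61 dpf and in replicate 1 of the mutant at each age, and vtg3 in the other 7 libraries, whose sums are 36 to 80.1 counts.

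Genes of the ovary that act upstream of vitellogenin in the known pathway were read from a list of 18 genes of estrogen synthesis and response, of which 17 passed the filter. Between genotypes at 61 dpf, 0 rose and 1 fell by edgeR, with 5 at an unadjusted p under 0.05 and a median log2 fold change of 0.05, while DESeq2 called 2 lower, fshr and cyp11a1. At 47 dpf edgeR called 0, with 2 at an unadjusted p under 0.05, and DESeq2 called 0. Over all 21407 genes, 5418 had such a p at 61 dpf and 1481 at 47 dpf, and edgeR called 1.82% and 0.0888%. DESeq2 called 2419 genes in all at 61 dpf and 174 at 47 dpf. cyp11a1 encodes the enzyme of the first step of steroid synthesis. The one that fell by edgeR was fshr, the receptor of follicle-stimulating hormone, which drives follicle growth and estrogen synthesis. fshr was at 4.84, 4.12 and 3.87 CPM in mutants and 7.30, 11.5 and 10.3 CPM in wild type at 61 dpf, without overlap (log2 fold change -1.18 ± 0.24 SE, edgeR adjusted p = 0.0379). The genotypes were apart in either direction for 27.9% of all genes tested at that age. At 47 dpf fshr was at 5.84, 4.18 and 4.37 CPM in mutants and 4.36, 3.88 and 4.64 CPM in wild type, which overlapped, and in wild type it was called higher at 61 than at 47 dpf (1.17, edgeR adjusted p = 0.0385). edgeR called 1.52% of all genes tested between those ages. Like the vitellogenins, fshr was thus highest in wild type at 61 dpf, but its highest library was replicate 2, the lowest of the 3 in vitellogenin.

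The other genes of estrogen signalling did not pass edgeR's threshold. lhcgr, the receptor of luteinizing hormone, was at 2.12, 1.2 and 1.5 CPM in mutants and 2.49, 3.78 and 2.28 CPM in wild type at 61 dpf (log2 fold change -0.82, edgeR adjusted p = 0.224). The genotypes did not overlap there, as in 27.9% of all genes tested. In wild type DESeq2 called lhcgr higher at 61 than at 47 dpf, where it called 1633 genes in all. cyp19a1a, the ovarian aromatase that makes estrogen, was at 0.938, 2.87 and 0.756 CPM in mutants and 1.93, 1.57 and 2.31 CPM in wild type at 61 dpf, which overlapped (-0.33, edgeR adjusted p = 0.798). esr1, the estrogen receptor that drives vitellogenin genes in the liver of fish, was at 1.35, 8.68 and 2.0 CPM in mutants and 1.69, 2.08 and 2.69 CPM in wild type at 61 dpf (0.91, edgeR adjusted p = 0.498). At 47 dpf esr1 was at 1.82, 2.23 and 1.96 CPM in mutants and 15.2, 1.18 and 5.89 CPM in wild type (-1.89, edgeR adjusted p = 0.661). Its 3 highest libraries were thus ones with little vitellogenin. esr2a (0.57, edgeR adjusted p = 0.181) and esr2b (0.34, edgeR adjusted p = 0.606), which encode the other nuclear estrogen receptors, were not called at 61 dpf either.

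No gene that takes yolk precursors into the oocyte was called by edgeR. Of 29 genes of uptake receptors and endocytosis, all tested, edgeR called 0 in every comparison, and the median log2 fold change between genotypes at 61 dpf was -0.25. At 61 dpf 11 of them had an unadjusted p under 0.05. There DESeq2 called 2 higher in mutants (lrp2b and cubn) and 3 lower (lrp1aa, ldlrap1a and rab7a), and 2419 genes in all. Between ages in wild type DESeq2 called lrp1aa higher at 61 dpf and 3 genes lower (ldlrb, cubn and rab11ba), and 1633 genes in all. At 47 dpf 1 had an unadjusted p under 0.05, and DESeq2 called 0. Over all 21407 genes, 5418 had such a p at 61 dpf and 1481 at 47 dpf. lrp13, which encodes an ovarian vitellogenin receptor in other fish, was at 897, 884 and 1011 CPM in mutants and 1175, 490 and 430 CPM in wild type at 61 dpf (log2 fold change 0.41, edgeR adjusted p = 0.429). vldlr, the very-low-density lipoprotein receptor gene, was at 254, 265 and 321 CPM in mutants and 463, 248 and 288 CPM in wild type at that age (-0.25, edgeR adjusted p = 0.496). In both genes replicate 1 of the wild type was the highest library of that age and replicate 2 was below every mutant, so the groups overlapped.

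Of 23 genes of yolk processing, proteases and acidification, 21 were tested. None was called between genotypes at 61 dpf by edgeR or DESeq2. There 5 had an unadjusted p under 0.05 in edgeR, against 5418 of all 21407 genes, and the median log2 fold change was -0.07. In wild type, ctsd was called higher at 61 than at 47 dpf (log2 fold change 0.76 ± 0.17 SE, edgeR adjusted p = 0.0488). Cathepsin D, its product, is one of the proteases that cleave vitellogenin in the oocyte. ctsd averaged 253 ± 29.0 CPM in mutants and 342 ± 38.7 CPM in wild type at 61 dpf, and 246 ± 39.2 CPM in mutants and 201 ± 19.2 CPM in wild type at 47 dpf (SD, n = 3 each). Between ages in wild type edgeR called 1 of the 21 genes, and 1.52% of all genes tested. DESeq2 called 3 of the 21 higher at 61 dpf there, ctsd, atp6v1ba and mcoln1a, and 1633 genes in all.

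**Figure D5:**
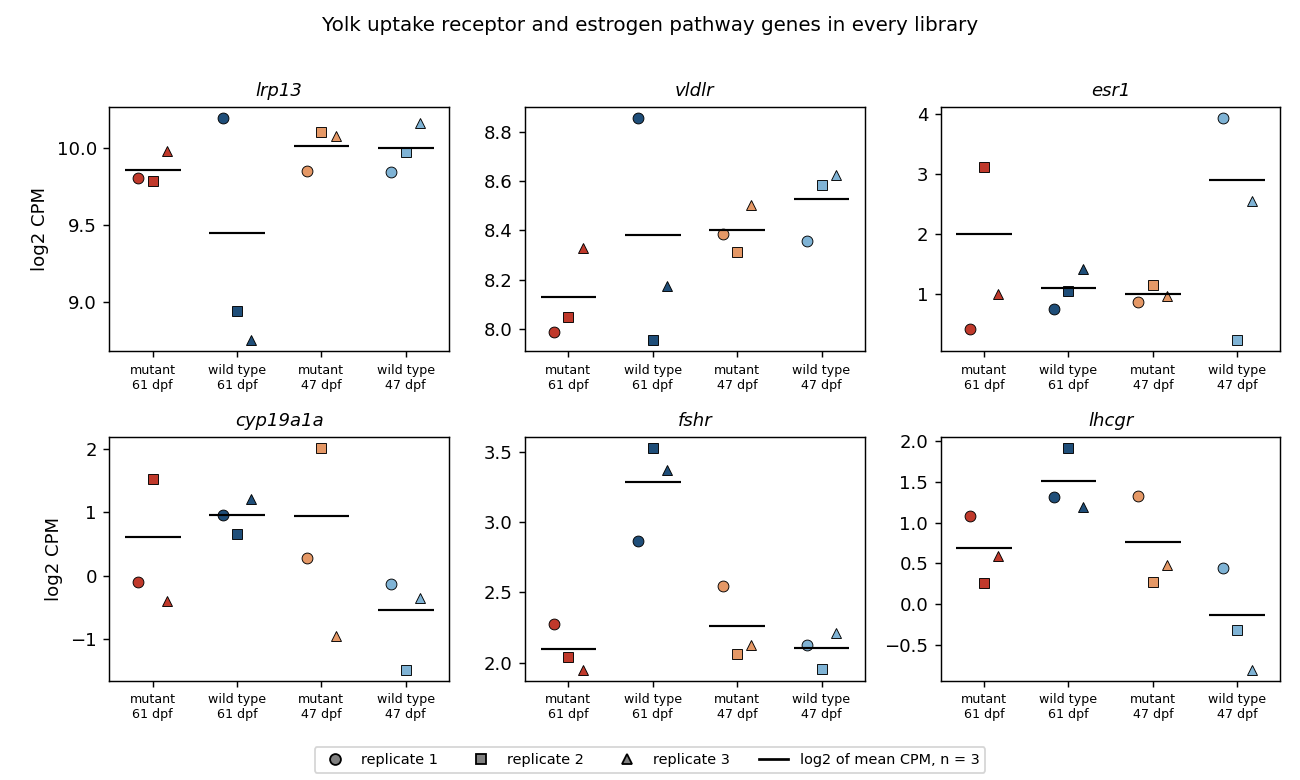
Level of 2 genes of yolk uptake, lrp13 and vldlr, and of 4 genes of estrogen signalling, esr1, cyp19a1a, fshr and lhcgr, in the 12 libraries, as log2 CPM. Each point is a library, its shape gives the replicate number and the bar is the log2 of the group mean (n = 3). fshr is highest in wild type at 61 dpf. At that age the genotypes do not overlap in fshr and lhcgr, as in 27.9% of all genes tested, while they overlap in lrp13, vldlr, esr1 and cyp19a1a.

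Of the 5 relatives of vitellogenin tested, which share its lipid-binding or other domains, edgeR called 0 in every comparison. At 61 dpf 1 had an unadjusted p under 0.05, against 5418 of all 21407 genes. DESeq2 called 1 of the 5 there, vwf, higher in mutants, and 2419 genes in all. apobb.1, an apolipoprotein B gene, was at 10.2, 0.836 and 1.45 CPM in mutants and 2.68, 0.897 and 1.37 CPM in wild type at 61 dpf (log2 fold change 1.31, edgeR adjusted p = 0.505). At 47 dpf it was at 29.4, 1.33 and 3.49 CPM in mutants and 2.92, 0.571 and 0.496 CPM in wild type, so that it was highest in the 2 mutant libraries with much liver RNA. apoba (0.83, edgeR adjusted p = 0.558) and apobb.2 (1.51, edgeR adjusted p = 0.366) were also highest in these libraries. Both apobb.1 and apoba belong to the liver list whose sum marks these libraries, so their high level there is not independent of it. mttp, which loads lipid onto apolipoprotein B, was at 4.47, 5.51 and 4.42 CPM in mutants and 3.72, 4.99 and 16.5 CPM in wild type at 61 dpf (-0.81, edgeR adjusted p = 0.282), with replicate 3 of the wild type alone at the top. vwf, the gene of von Willebrand factor, whose domain vitellogenins share, was at 2.85, 3.31 and 3.17 CPM in mutants and 1.35, 1.70 and 1.03 CPM in wild type at that age (1.19, edgeR adjusted p = 0.0625). Every mutant library lay above every wild-type library in vwf, and 27.9% of all genes tested were apart in either direction.

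Markers of other cells that an ovary dissection can hold were read in the same fit. Between genotypes at 61 dpf none of 24 oocyte, 7 intestinal, 10 adipocyte, 17 exocrine pancreas and 10 erythroid genes was called by edgeR, where an unadjusted p under 0.05 was found for 3 oocyte, 4 intestinal, 1 adipocyte, 1 pancreas and 2 erythroid genes. DESeq2 called 3 oocyte, 3 intestinal and 1 pancreas gene at that age, and 0 adipocyte and 0 erythroid genes. Over all 21407 genes, 5418 had an unadjusted p under 0.05 in edgeR there, and DESeq2 called 2419. Of 16 granulosa and theca cell genes, fshr fell and gsdf, a somatic growth factor gene of the gonad, rose (log2 fold change 1.55, edgeR adjusted p = 0.0439). edgeR called 1.82% of all genes tested there. DESeq2 called 3 of the 16, with fshr lower and gsdf and nr5a1b higher in mutants. gsdf was at 36.1, 44.7 and 53.5 CPM in mutants and 17.0, 18.9 and 9.92 CPM in wild type at 61 dpf, without overlap, as in 27.9% of all genes tested. In wild type it was called lower at 61 than at 47 dpf (-2.10, edgeR adjusted p = 0.0239). Of the 16 genes, edgeR called 1 higher and 1 lower between those ages, and DESeq2 called 3 higher and 1 lower. In wild type 3 erythroid genes were lower at 61 than at 47 dpf, among them the globin genes hbba1 (-3.27, edgeR adjusted p = 0.0294) and hbaa1 (-3.53, edgeR adjusted p = 0.0329) and slc4a1a (-1.99, edgeR adjusted p = 0.0294), the anion exchanger gene of red cells. Between ages in wild type edgeR called 1.52% of all genes tested. DESeq2 called 6 erythroid genes lower at 61 dpf there, and 1633 genes in all. In mutants edgeR called none of the 10 erythroid genes between ages, and 0% of all genes tested. There 7 of the 10 had an unadjusted p under 0.05, against 820 of all 21407 genes. DESeq2 called 6 of the 10 lower at 61 dpf in mutants, and 24 genes in all. The erythroid list summed to 40.1 to 78.0 CPM at 61 dpf and 175 to 836 CPM at 47 dpf in mutants, and to 31.3 to 62.8 CPM at 61 dpf and 256 to 540 CPM at 47 dpf in wild type. The summed level of the oocyte list was 18771 to 21181 CPM in mutants and 10696 to 21245 CPM in wild type at 61 dpf, and 24002 to 29786 CPM in mutants and 22847 to 25787 CPM in wild type at 47 dpf. The exocrine pancreas list varied most widely within groups. At 61 dpf it summed to 29.1 to 808 CPM in mutants and 206 to 750 CPM in wild type. At 47 dpf it summed to 37.9 to 2552 CPM in mutants and 22.2 to 654 CPM in wild type. Replicate 3 of the wild type at 61 dpf had the highest intestinal sum, 59.9 CPM. The most abundant intestinal marker, cldn15a, was at 41.7 CPM there, against 11.4 to 17.8 CPM in the other libraries. The most abundant adipocyte marker, fabp11a, was at 40.9 CPM there, against 4.61 to 34.2 CPM. The next most abundant marker of each list, cdx1b (8.41 CPM) and pparg (10.7 CPM), was not highest in that library. The part of these differences in the vitellogenin result was not tested.

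The genes whose pattern was most like the summed vitellogenin level were sought by Pearson's r of log2 CPM over the 12 libraries. The search covered 13558 genes that passed the filter and had a mean log2 CPM of at least 1. It left out the vitellogenins and symbols that contain a colon, start with LOC, si or zgc, or read as a date. Genes with ordinary names that start with si were thus not searched either. The most alike of the genes searched were znf395b (r = 0.92), dnajc6 (0.91), ankmy1 (0.90), becn1 (0.90) and pdk2a (0.89), beside a gene with a clone name (0.91). dnajc6, which encodes auxilin, a protein that uncoats clathrin vesicles, was at 13.1 ± 2.74 CPM in mutants and 24.8 ± 1.97 CPM in wild type at 61 dpf, and at 12.5 ± 1.58 CPM in mutants and 12.2 ± 1.92 CPM in wild type at 47 dpf (SD, n = 3 each). pdk2a, a pyruvate dehydrogenase kinase gene, was at 4.47 ± 0.732 CPM in mutants and 11.3 ± 5.64 CPM in wild type at 61 dpf, and becn1, the autophagy gene of beclin, at 13.4 ± 1.46 CPM in mutants and 23.8 ± 7.90 CPM in wild type (SD, n = 3 each). These values are a description, since the genes were picked for their likeness.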

How the data were processed

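Polyadenylated ovary RNA was analysed in 12 libraries, grouped by the genotype, age and replicate number of the sample labels. Estimated counts by gene symbol are what the authors deposited, made with kallisto on GRCz11 per the submitters' processing notes. No version or annotation release is given in the sources used here. Per the labels' protocols, cDNA was made with a Tecan Ovation RNAseq kit. Of the deposited values 45.4% were not whole. A line with no gene name (0.000113% of counts or less) was dropped. No molecular identifiers are mentioned, so intervals cover counting error only.

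Estimated counts were rounded, filtered with filterByExpr on the 4 groups (in effect 0.406 CPM in 3 libraries), scaled by TMM and fitted with edgeR 4.0.16 (R 4.3.3, limma 3.58.1) in 1 quasi-likelihood model of 12 libraries (common biological coefficient of variation 0.33). The threshold was an adjusted p of 0.05 (Benjamini-Hochberg, 21407 genes). The 5 comparisons set mutant against wild type at each age, 61 against 47 dpf in each genotype, and the mutant effects of the 2 ages against each other. SE is the absolute log2 fold change divided by the square root of F. The fit was tested on simulated data. The sum of the 7 genes has no test, and single exact permutation tests of 3 against 3 libraries could not go below p = 0.1.

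The vitellogenin genes and all lists (estrogen synthesis and receptors, yolk uptake, yolk processing, large lipid transfer relatives, oocyte, granulosa and theca, liver, intestinal epithelium, adipocyte, exocrine pancreas, erythroid) were chosen with earlier results of these data known. Named genes were the 7 members, their relatives, 8 genes of the pathway, called members of a list, the 2 most abundant markers of a cell type where they bear on a result, and the 6 genes most like the sum. fabp10a was added after its values were seen. Alternatives were DESeq2 1.42.0, other scalings, no filter, a replicate block, compared groups only, and leaving out libraries. Gene order comes from RefSeq on GRCz12tu, another assembly than that of the counts, so no coordinates are given. vtg8 was not analysed here.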

Additional observations from a re-analysis of the deposited data

Results flagged for a closer look

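The libraries of the genotypes did not overlap for vtg1 at either age, in opposite directions, although edgeR called vtg1 at neither (adjusted p = 0.0902 at 61 dpf and 0.733 at 47 dpf). Of all genes tested, 27.9% did not overlap at 61 dpf and 12.6% at 47 dpf. At 61 dpf every mutant library lay below every wild-type library, and at 47 dpf every mutant library lay above every wild-type library. The difference of the 2 mutant effects was -6.92 on the log2 scale, which did not pass the threshold over all genes (edgeR adjusted p = 0.397; DESeq2 adjusted p = 0.0511). Without replicate 1 of the mutant at 47 dpf, which had the highest level of liver transcripts, it was -4.80. The remaining mutant libraries of that age were at 0.663 and 0.50 CPM, against 0.264 to 0.388 CPM in wild type, with Poisson intervals that overlapped. Every mutant library already lay above every wild-type library, so leaving out that replicate could not make the groups overlap. Their order without it is therefore no check on the part of liver RNA, which was not tested.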

How the results depend on the processing

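Of 415 recomputed log2 fold changes of single genes, 350 kept their direction and side of the threshold, 38 lost a call, 14 gained one and 13 turned sign. At 61 dpf all 78 stayed negative for mutant against wild type, and all 78 stayed positive for age in wild type. The groups did not overlap in vtg1, vtg2, vtg4 and vtg7 in both comparisons, nor in vtg3 between genotypes. Leaving out a library could not reverse their order, so for these genes the kept sign is no check on the direction. Calls moved more. For mutant against wild type at 61 dpf, where 2 genes were called, 1 was called with no filter, 3 (vtg4, vtg5 and vtg7) with upper-quartile scaling, 6 by DESeq2, 0 with the compared libraries only, 1 (vtg1) without both mutant libraries of highest liver level, and 0 to 6 when 1 library was left out. For age in wild type, where 4 were called, 1 was called with the compared libraries only, and 0 to 7 when 1 library was left out. For the difference between ages DESeq2 called 1. With a replicate block, 0 were called at 61 dpf and 2 for age in wild type. Same-numbered libraries had correlations of -0.198 to 0.254, so the numbers were not taken as pairs. The causes were not tested, beyond the fewer libraries in some fits.

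The log2 ratio of sums ran from -1.12 to 0.84 for age in mutant and from -6.27 to -4.31 for the difference when 1 library was left out, both extremes on the negative side without replicate 1 of the mutant at 61 dpf. The changes of sign were all in values that were not called. For age in mutant, vtg3 turned to 0.003 with upper-quartile scaling and ran from -0.19 to 0.13 with 1 library left out. vtg1 turned to -0.044 with the replicate block and -0.80 without both liver-rich libraries, and ran from -2.92 to 2.29. vtg4 turned to -1.52 without both, and ran from -0.82 to 1.12 (leave-one-out). At 47 dpf vtg7 ran from -0.22 to 1.64 with 1 library left out. A sum with vtg8 and values for hpx, apoh, fabp4a and try were not run, as they had no line here. At 3 counts per library, differences below about 0.181 CPM were not detectable in the shallowest library.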
